A study of Mus musculus with 35 samples.

Results

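Messenger RNA levels of 10 genes of prostaglandin synthesis and sensing were followed in mouse bone marrow-derived macrophages (BMDMs), which are macrophages grown from marrow in culture. The genes were taken by symbol, and each matched 1 row of the 47069 gene identifiers in the deposited tables. They are the phospholipase Pla2g4a, the cyclooxygenases Ptgs1 and Ptgs2, the terminal synthases Ptges, Ptges2, Hpgds and Tbxas1, and the receptors Ptger2, Ptger4 and Ptgir. BMDMs came from C57BL/6 mice that were wild type (WT) or labelled AMPKa1-/-, a label that names the loss of a catalytic subunit of the AMP-activated protein kinase. All cultures were grown with L929 conditioned medium, as a source of macrophage growth factor, and were then exposed for 24 h to 1 of 6 treatments. These were vehicle (DMSO), dexamethasone (Dex, a synthetic glucocorticoid) at 100 nM, lipopolysaccharide (LPS, a cell wall component of Gram-negative bacteria) at 100 ng/ml, LPS + Dex, damage-associated molecular patterns (DAMPs) at 1 µg/ml, or DAMPs + Dex. Each combination was 1 treatment of 24 h. Rises and falls with added Dex therefore compare separate cultures, and not the same culture before and after Dex. The labels do not say what the DAMPs consisted of, nor how the AMPKa1-/- allele was made. Each genotype and treatment had 3 libraries, except WT with LPS, for which the samples held replicates 2 and 3 alone. In all, 17 WT libraries and 18 libraries labelled AMPKa1-/- were compared. The libraries held 15837203 to 31955298 fragments. Values are FPKM, the number of sequenced fragments per kilobase of transcript scaled to the fragments of the library, which allows levels of different genes to be compared.

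Prostaglandins are short-lived lipid signals that are made on demand. A cytosolic phospholipase frees arachidonic acid from membranes, a cyclooxygenase turns it into prostaglandin H2, and terminal synthases convert that intermediate into prostaglandin E2, prostaglandin D2 or thromboxane A2, which act through receptors on the surface of the same or neighbouring cells. Macrophages are a main source of prostaglandin E2 in inflammation, and the inducible cyclooxygenase is a classical target of anti-inflammatory glucocorticoids.

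Promoter sequences are given for 4 genes. Of these, 3 were higher with LPS than with vehicle and lower with LPS + Dex than with LPS (Ptgs2, Ptges and Pla2g4a). The other, Ptges2, rose only weakly with LPS and strongly with LPS + Dex. Each runs 5′ to 3′ on the strand of the gene, from 250 bases before to 50 bases after the start annotated by RefSeq (GRCm38.p6), and positions are counted from 1 at its first base. Capitals mark matches on either strand to the letters TTGCGCAA (a palindrome bound by CCAAT/enhancer-binding proteins), CACGTG (E-box), TGACGT (core of the cAMP response element), AGAACA (core of the glucocorticoid response element), GGGA, any 4 bases and CC (nuclear factor kappa B) or TGANTCA (AP-1).
Ptgs2 (chr1:150099781-150100080, plus strand): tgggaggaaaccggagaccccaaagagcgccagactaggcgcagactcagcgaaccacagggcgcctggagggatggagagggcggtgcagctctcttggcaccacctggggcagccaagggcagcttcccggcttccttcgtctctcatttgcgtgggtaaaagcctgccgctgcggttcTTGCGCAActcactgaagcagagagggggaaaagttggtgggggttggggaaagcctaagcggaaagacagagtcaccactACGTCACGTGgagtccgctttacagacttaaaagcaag
Ptges (chr2:30903248-30903547, minus strand): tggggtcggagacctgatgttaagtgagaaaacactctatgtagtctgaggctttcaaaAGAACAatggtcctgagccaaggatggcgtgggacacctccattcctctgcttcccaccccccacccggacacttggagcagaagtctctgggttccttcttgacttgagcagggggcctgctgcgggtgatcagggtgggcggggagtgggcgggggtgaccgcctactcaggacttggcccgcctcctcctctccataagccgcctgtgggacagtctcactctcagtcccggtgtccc
Pla2g4a (chr1:149961241-149961540, minus strand): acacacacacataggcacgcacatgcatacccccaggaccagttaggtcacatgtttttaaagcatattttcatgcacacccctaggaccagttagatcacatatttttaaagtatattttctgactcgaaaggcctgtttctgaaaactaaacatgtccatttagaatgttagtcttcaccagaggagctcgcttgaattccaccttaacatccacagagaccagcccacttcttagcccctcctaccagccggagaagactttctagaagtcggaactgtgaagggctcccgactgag
Ptges2 (chr2:32395640-32395939, plus strand): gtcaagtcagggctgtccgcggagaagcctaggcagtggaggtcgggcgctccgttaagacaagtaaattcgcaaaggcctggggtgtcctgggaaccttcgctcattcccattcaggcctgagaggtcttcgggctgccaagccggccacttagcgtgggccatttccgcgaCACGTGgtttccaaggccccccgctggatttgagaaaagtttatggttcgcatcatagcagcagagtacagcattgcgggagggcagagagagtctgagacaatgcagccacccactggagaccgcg
The Ptgs2 promoter held TTGCGCAA at bases 182 to 189, letters found in 0.183% of the 32851 RefSeq promoters of the same length. It also held CACGTG at bases 267 to 272, which shares bases with ACGTCA, the complement of TGACGT, at bases 263 to 268; the E-box was present in 7.15% and the cAMP response element core in 7.51% of all promoters. The Ptges promoter held AGAACA at bases 60 to 65, as did 19% of promoters on one strand or the other, and the Ptges2 promoter held CACGTG at bases 174 to 179. No searched letters were found in the Pla2g4a window, and the nuclear factor kappa B letters, present in 20.7% of promoters, were found in 0 of the 10 windows. Among the other members, AGAACA or its complement TGTTCT occurred in Ptger2 and Ptgs1, and TGATTCA occurred in Tbxas1, with the AP-1 letters present in 7.81% of promoters. For Ptges and Tbxas1 the RefSeq start lies 26566 and 43582 bases from the start of the gene in the GENCODE annotation, so these windows belong to 1 of several starts. Such matches describe letters and not bound sites.

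The labels were checked first. Prkaa1, the gene of the AMPKa1 subunit, was not called lower in the libraries labelled AMPKa1-/- under any treatment, with 14.8, 16.5 and 15.4 FPKM under vehicle against 15.9, 11.8 and 15.3 FPKM in WT. The groups overlapped, and the limma difference was 0.12 ± 0.23 (log2(FPKM + 1), SE; adjusted p = 1). Under the other 5 treatments the groups overlapped too, with differences of −0.29 with Dex, −0.28 with LPS, −0.20 with LPS + Dex, 0.06 with DAMPs and 0.33 with DAMPs + Dex (adjusted p = 0.35 to 0.996). A value over the whole gene does not check a deletion of part of it, and AMPKa1-/- therefore stands for the label of these libraries throughout. Tsc22d3, a gene induced by glucocorticoids, was at 51.7 to 54.6 FPKM in WT vehicle libraries and at 667 to 736 FPKM with Dex, and Il6, a cytokine induced by LPS, was at 489 and 524 FPKM in the WT LPS libraries and at most 0.157 FPKM with vehicle.

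All 8 macrophage markers were present, and Lyz2, the lysozyme of myeloid cells, was the most abundant at 10344 to 35906 FPKM. Of 7 mast cell and basophil markers, cells that also make prostaglandin D2, 0 reached a mean of 1 FPKM. Fcer1a and Tpsb2, which define these cells, were listed at 0 in every library, and the sum over the list did not exceed 1.68 FPKM. Of 5 platelet markers, Ppbp, a chemokine that macrophages can also make, was the most abundant with 13.5 and 11.4 FPKM in the WT LPS libraries and 0 to 0.846 FPKM with LPS + Dex, and the sum over these markers was 12.7 to 14.1 FPKM with LPS, 1.14 to 2.10 FPKM with LPS + Dex and 1.35 to 1.72 FPKM with vehicle in WT. Among 7 neutrophil markers, Camp reached 133 and 113 FPKM in the WT LPS libraries, 0.157 to 1.36 FPKM with vehicle and 32.9 to 52.1 FPKM with LPS + Dex, whereas Ly6g and Elane, which define these cells, did not exceed 0.475 FPKM in any library. Among 5 dendritic cell markers, Ccr7 reached 37.5 and 110 FPKM with LPS, 0.0253 to 0.0602 FPKM with vehicle and 0.439 to 1.28 FPKM with LPS + Dex in WT, while Cd209a was listed at 0 in every library. Kdr, an endothelial receptor, was at 45 and 52.9 FPKM in the WT LPS libraries, 1.17 to 2.69 FPKM with vehicle and 0.112 to 0.373 FPKM with LPS + Dex, whereas Cdh5 and Tek stayed at or below 0.167 FPKM. Means of at least 1 FPKM were reached by 3 of the 7 neutrophil, 1 of the 5 platelet, 1 of the 5 dendritic cell, 1 of the 4 endothelial, 3 of the 4 fibroblast and stromal and 2 of the 4 osteoclast markers. Camp (6.30 with LPS, adjusted p = 4.05e-15, and −1.62 with added Dex, adjusted p = 0.000311), Ccr7 (5.98, 3.79e-17, and −5.16, 2.86e-15) and Kdr (4.19, 7.81e-12, and −5.38, 1.22e-13) thus rose with LPS and fell with added Dex in WT, the directions in which Ptgs2 moved, and their part in the results below was not tested. Summed levels of the remaining lists stayed at or below 2.05 FPKM for B cells, 0.281 FPKM for T and NK cells, 12.8 FPKM for fibroblasts and 36.7 FPKM for osteoclasts. In bulk RNA, fewer cells of a type and less RNA per cell cannot be told apart.

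One group comparison stood apart from the others. Between genotypes, limma called 26.5% of all 11354 tested genes under Dex, against 0.432% to 1.06% under the other 5 treatments. Correlations of log2(FPKM + 1) between WT and AMPKa1-/- labelled Dex libraries reached down to 0.938, whereas replicates within the WT Dex group correlated at 0.985 to 0.987 and within the other Dex group at 0.982 to 0.990. Without WT Dex replicate 2 the number of genes called there fell from 3008 to 304, and member results under Dex between genotypes are therefore given with and without that library.

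At rest, the macrophages expressed the terminal synthases for prostaglandin D2 and thromboxane far above the cyclooxygenases. In WT vehicle libraries, Hpgds (97.4 ± 9.40 FPKM, SD, n = 3) and Tbxas1 (86.6 ± 1.89 FPKM) had the highest levels, with ranges that overlapped each other. Pla2g4a (13.8 ± 1.66 FPKM) and Ptger4 (11.7 ± 1.01 FPKM) followed, also overlapping, while Ptgs2 was lowest at 0.445 ± 0.156 FPKM. With LPS this order changed. Ptgs2 was then first at 1193 ± 10.9 FPKM (n = 2), followed by Ptges at 565 ± 91.4 FPKM and Pla2g4a at 93.9 ± 7.03 FPKM, and Ptgs1 was last at 0.115 ± 0.0740 FPKM. With LPS + Dex, Ptges (189.8 ± 68.0 FPKM, n = 3) and Ptges2 (46.1 ± 1.57 FPKM) were first, and Ptgs2 was eighth of the 10 with a range overlapping those of Hpgds, Ptger4 and Ptger2.

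**Figure D1:**
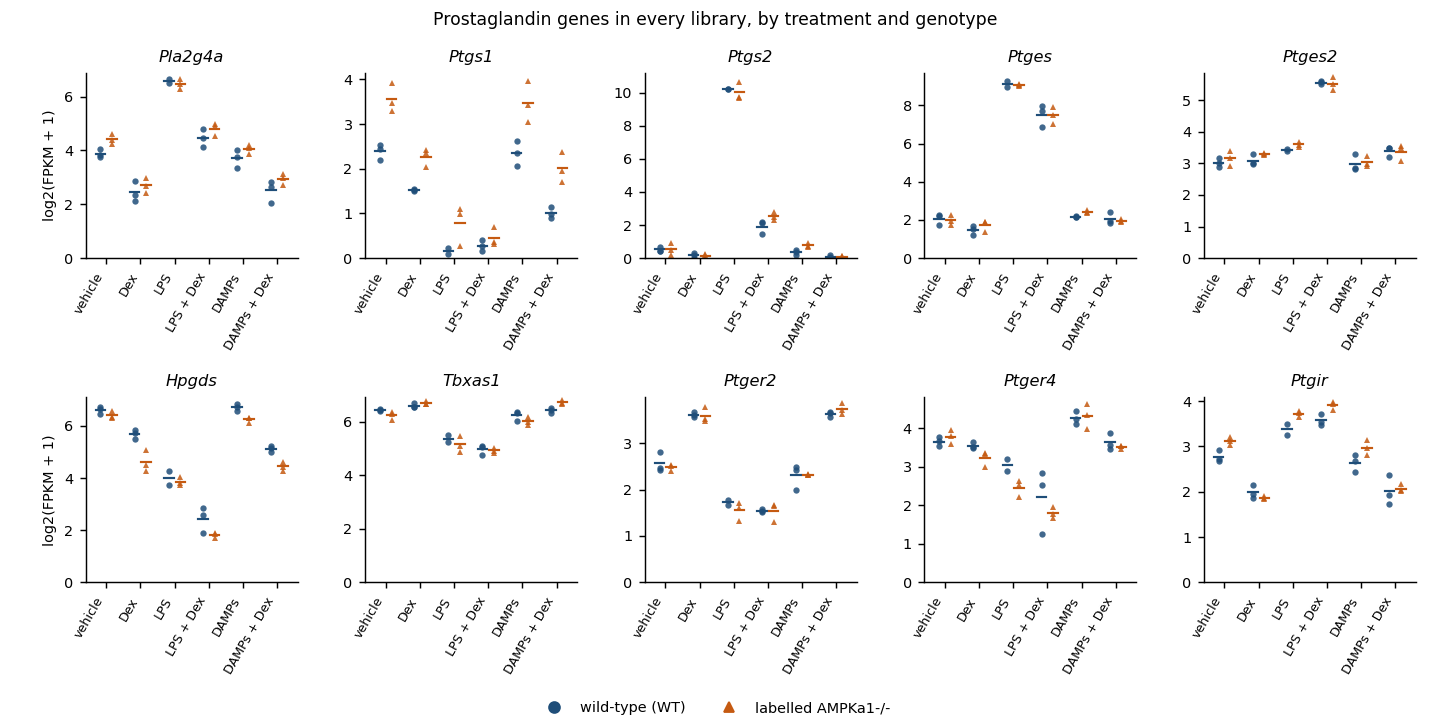
Levels of the 10 genes in every library, as log2(FPKM + 1) on the vertical axis against the 6 treatments, with 1 panel per gene. Circles are WT libraries, triangles are libraries labelled AMPKa1-/-, and bars are group means. Ptgs2 stands high in the LPS columns alone, Ptges in the LPS and LPS + Dex columns, and Ptges2 in the LPS + Dex column.

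In the comparison of LPS with vehicle, limma called 5 of the 10 genes higher and 4 lower in WT, beside 55.7% of all tested genes (19.9% higher and 35.8% lower). In the libraries labelled AMPKa1-/- it called 5 higher and 5 lower, beside 64.3% of all genes (20.2% higher and 44.1% lower). LPS thus changed much of the transcriptome, and the members called are to be read against that. The higher genes were Pla2g4a, Ptgs2, Ptges, Ptges2 and Ptgir in both genotypes. The lower genes were Ptgs1, Hpgds, Tbxas1 and Ptger2 in both, with Ptger4 in addition in the libraries labelled AMPKa1-/-. The median log2 change over the members was −0.10 in WT and −0.25 in AMPKa1-/-, beside −0.19 and −0.30 over all genes. With libraries centred on one median, which moved the median of all genes to −0.04 and −0.02, higher genes made up 46.3% in place of 35.7% of all WT calls and 49% in place of 31.4% in AMPKa1-/-, and no member call turned direction.

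Pla2g4a encodes the cytosolic phospholipase A2 that frees arachidonic acid. In WT BMDMs it was at 13.1, 12.6 and 15.7 FPKM with vehicle, 98.9 and 88.9 FPKM with LPS, and 27.1, 21.2 and 16.5 FPKM with LPS + Dex. In the libraries labelled AMPKa1-/- it was at 19.9, 23.6 and 17.8 FPKM with vehicle, 77.7, 87.4 and 99.8 FPKM with LPS, and 29.0, 30.6 and 22 FPKM with LPS + Dex. All LPS libraries were above all vehicle libraries, and all LPS + Dex libraries lay below all LPS libraries. LPS raised Pla2g4a by 2.68 ± 0.24 in WT (log2 scale, adjusted p = 1.69e-10) and by 2.06 ± 0.21 in AMPKa1-/- (adjusted p = 2.35e-09). Added Dex lowered it in both genotypes (log2 changes −2.09 ± 0.24, adjusted p = 5.11e-08, and −1.67 ± 0.21, adjusted p = 2.72e-07). Dex lowered Pla2g4a without LPS as well, to 6.37, 4.10 and 3.38 FPKM in WT and 6.97, 5.42 and 4.37 FPKM in AMPKa1-/-, with each Dex library under each vehicle library of its genotype.

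Ptgs2, the inducible cyclooxygenase known as COX-2, had the widest range. It was at 0.339, 0.371 and 0.624 FPKM in WT vehicle libraries, at 1185 and 1200.3 FPKM with LPS, and at 3.54, 1.69 and 3.34 FPKM with LPS + Dex. The corresponding values in the libraries labelled AMPKa1-/- were 0.904, 0.386 and 0.138 FPKM, then 821, 854 and 1632 FPKM, and then 4.64, 5.90 and 3.85 FPKM. These levels rest on 29 to 57 fragments per library with vehicle in WT and on 115374 to 130958 fragments with LPS. The 3 states did not overlap in either genotype. LPS raised mean FPKM 2680-fold in WT and 2320-fold in AMPKa1-/-, the latter 4210-fold without vehicle replicate 1 (log2 changes 9.70 ± 0.24, adjusted p = 1.77e-22, and 9.50 ± 0.21, adjusted p = 1.54e-23). With added Dex the mean was 0.00240 times the LPS mean in WT and 0.00435 times in AMPKa1-/- (log2 changes −8.31 ± 0.24, adjusted p = 2.62e-20, and −7.51 ± 0.21, adjusted p = 1.61e-20). Ptgs2 nevertheless stayed above vehicle with LPS + Dex, by 6.42-fold in WT (log2 change 1.38 ± 0.21, adjusted p = 3.01e-06) and 10.1-fold in AMPKa1-/-, or 18.3-fold without vehicle replicate 1 (1.99 ± 0.21, adjusted p = 5.61e-09).

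Ptgs1 encodes the other cyclooxygenase, COX-1, which many tissues express constitutively. With LPS it moved opposite to Ptgs2. In WT it was at 4.47, 4.77 and 3.62 FPKM with vehicle and at 0.0624 and 0.167 FPKM with LPS, the latter being 5 and 15 fragments. In AMPKa1-/- it was at 10.1, 14.2 and 8.81 FPKM with vehicle and at 1.15, 0.981 and 0.200 FPKM with LPS. No LPS library reached a vehicle library of its genotype. The log2 changes were −2.24 ± 0.24 (adjusted p = 9.08e-09) and −2.78 ± 0.22 (adjusted p = 1.08e-11), and on this scale, where 1 FPKM is added before the logarithm, they understate the change of a gene near 0. Added Dex left Ptgs1 at 0.212, 0.324 and 0.116 FPKM in WT, overlapping LPS alone, and the test did not separate them (0.12 ± 0.24, adjusted p = 0.743; in AMPKa1-/- −0.32 ± 0.22, adjusted p = 0.267). Without AMPKa1-/- LPS replicate 3, which was at 0.200 FPKM, the change in AMPKa1-/- was −0.58 (adjusted p = 0.0439). The mRNA of the cyclooxygenases was thus almost entirely Ptgs2 with LPS, whereas Ptgs1 exceeded Ptgs2 in every vehicle, Dex, DAMPs and DAMPs + Dex library.

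Ptges encodes microsomal prostaglandin E synthase-1, the inducible synthase that works with COX-2. WT levels were 3.58, 2.27 and 3.71 FPKM with vehicle, 629.6 and 500.3 FPKM with LPS, and 209, 114 and 246 FPKM with LPS + Dex. In AMPKa1-/- they were 3.80, 2.78 and 2.38 FPKM, then 508, 528 and 555 FPKM, and then 177, 131 and 238 FPKM. Every LPS library was above every LPS + Dex library, and these in turn were above every vehicle library. LPS raised mean FPKM 177-fold in both genotypes (log2 changes 7.09 ± 0.25, adjusted p = 6.73e-19, and 7.07 ± 0.23, adjusted p = 4.11e-20). With added Dex it was 0.336 and 0.343 times the LPS mean (−1.63 ± 0.25, adjusted p = 7.80e-06, and −1.58 ± 0.23, adjusted p = 1.85e-06), which was still 59.5-fold and 60.9-fold above vehicle.

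Ptges2, the constitutive membrane-associated prostaglandin E synthase-2, showed yet another pattern. WT levels were 7.01, 6.42 and 7.92 FPKM with vehicle, 9.87 and 9.55 FPKM with LPS, and 47.3, 44.3 and 46.7 FPKM with LPS + Dex. In AMPKa1-/- they were 8.09, 6.59 and 9.46 FPKM, then 11.1, 11.8 and 10.5 FPKM, and then 38.9, 44.4 and 51.8 FPKM. Each LPS + Dex library was above each library of every other treatment. Added Dex raised Ptges2 by 2.14 ± 0.16 in WT (adjusted p = 2.09e-11) and by 1.92 ± 0.14 in AMPKa1-/- (adjusted p = 1.41e-11), and it was the sole member called higher with LPS + Dex than with LPS. The rise with LPS alone was small, 0.40 ± 0.16 in WT (adjusted p = 0.0339) and 0.43 ± 0.14 in AMPKa1-/- (adjusted p = 0.0102), and the calls leaned on single libraries. The WT call was lost without LPS replicate 2 (adjusted p = 0.134), LPS replicate 3 (0.095), vehicle replicate 1 (0.0662) or vehicle replicate 2 (0.108), and that in AMPKa1-/- without vehicle replicate 2 (0.0844). Dex without LPS left it at 7.00, 6.93 and 8.72 FPKM in WT, within the range of the vehicle libraries but for the last.

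Genes next to Ptges2 were examined because counts of close genes can share reads. Lcn2, a secreted iron-siderophore binding protein, starts 7643 bases away on the opposite strand, and it rose from 1603 and 1076 FPKM in the WT LPS libraries to 14828, 18873 and 22431 FPKM with LPS + Dex (3.81 ± 0.46, adjusted p = 1.21e-07). 1110008P14Rik, 13957 bases away, also rose (1.99 ± 0.23, adjusted p = 5.51e-08). Slc25a25, a mitochondrial carrier 8714 bases away on the other side, fell (−0.83 ± 0.19, adjusted p = 0.00105), and Ciz1 did not pass the test (0.29 ± 0.17, adjusted p = 0.199). None of these genes overlaps Ptges2, and the part of shared reads in its level was not tested.

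Hpgds encodes hematopoietic prostaglandin D synthase. It fell with LPS, from 106, 87.3 and 99.2 FPKM to 18.2 and 12.4 FPKM in WT, and was lower still, at 4.96, 6.30 and 2.69 FPKM, with LPS + Dex. In AMPKa1-/- it went from 78.0, 80.2 and 94.8 FPKM to 15.6, 12.2 and 13 FPKM and then to 2.64, 2.26 and 2.73 FPKM. The 3 states did not overlap in either genotype. LPS changed it by −2.61 ± 0.21 (adjusted p = 3.13e-11) and −2.55 ± 0.19 (adjusted p = 3.75e-12), and added Dex changed it by a further −1.56 ± 0.21 (adjusted p = 1.08e-06) and −2.04 ± 0.19 (adjusted p = 9.69e-10). Dex alone also lowered Hpgds, to 51.4, 55.7 and 44 FPKM in WT and 32.8, 18.4 and 21.5 FPKM in AMPKa1-/-. With LPS + Dex the mean was 0.0477 times the vehicle mean in WT and 0.0302 times in AMPKa1-/-. The gene overlaps Gm17147 on the opposite strand (mean 3.03 FPKM), and whether counting used strand is not given in the sources used here.

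Tbxas1 encodes thromboxane A synthase. Its WT levels were 86.6, 84.7 and 88.4 FPKM with vehicle, 44 and 37.3 FPKM with LPS, and 32.7, 33.6 and 25.8 FPKM with LPS + Dex. Those in AMPKa1-/- were 67, 78.3 and 82.2 FPKM, then 33.7, 43.8 and 28.4 FPKM, and then 27.5, 29.5 and 31.8 FPKM. All LPS libraries were below all vehicle libraries, while LPS and LPS + Dex overlapped in AMPKa1-/-. The LPS changes were −1.07 ± 0.14 (adjusted p = 2.1e-07) and −1.10 ± 0.12 (adjusted p = 1.48e-08). The further change with Dex passed the test in WT (−0.40 ± 0.14, adjusted p = 0.0277), and not in AMPKa1-/- (−0.23 ± 0.12, adjusted p = 0.166). The WT call was lost in 5 of 13 alternative analyses, among them those without LPS replicate 2 (adjusted p = 0.292) and without LPS + Dex replicate 3 (adjusted p = 0.146). In AMPKa1-/- the change was −0.37 (adjusted p = 0.0281) without LPS replicate 3. Tbxas1 overlaps Hipk2 on the opposite strand, and the change of Hipk2 with added Dex was not called in WT (adjusted p = 0.831). Parp12 lies 1824 bases away on the opposite strand and fell with added Dex in WT (−2.475 ± 0.225, adjusted p = 9.56e-10). Its WT levels were 24.9 to 30.6 FPKM with vehicle, 155 and 134 FPKM with LPS, and 20.1 to 31.8 FPKM with LPS + Dex. The part of shared reads in the Tbxas1 level was not tested.

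Ptger2 and Ptger4 encode the prostaglandin E2 receptors EP2 and EP4, which both raise cyclic AMP. Ptger2 was at 6.01, 4.34 and 4.51 FPKM in WT vehicle libraries, at 2.18 and 2.42 FPKM with LPS, and at 11.7, 10.9 and 11.2 FPKM with Dex. In AMPKa1-/- it was at 4.28, 4.80 and 4.68 FPKM, at 2.28, 2.06 and 1.51 FPKM, and at 10.1, 10.5 and 12.8 FPKM. Dex libraries were above, and LPS libraries below, all vehicle libraries of their genotype. LPS lowered Ptger2 in WT (log2 change −0.84 ± 0.15, adjusted p = 2.16e-05) and in AMPKa1-/- (−0.93 ± 0.13, adjusted p = 7.44e-07), and Dex raised it by 1.05 ± 0.13 (adjusted p = 6.36e-07) and 1.11 ± 0.13 (adjusted p = 2.51e-07). With LPS + Dex it was at 1.88, 2.01 and 1.88 FPKM in WT and 2.17, 2.14 and 1.46 FPKM in AMPKa1-/-, so that the rise with Dex was not seen in the presence of LPS (−0.17 ± 0.15, adjusted p = 0.401, and −0.02 ± 0.13, adjusted p = 0.945).

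Ptger4 was at 11.7, 10.6 and 12.7 FPKM in WT vehicle libraries, at 6.48 and 8.28 FPKM with LPS, and at 4.76, 6.21 and 1.39 FPKM with LPS + Dex. In AMPKa1-/- it was at 14.6, 12.9 and 11.1 FPKM, then 3.65, 5.23 and 4.78 FPKM, and then 2.44, 2.90 and 2.2 FPKM. The LPS libraries were below the vehicle libraries in both genotypes. The test called the LPS change in AMPKa1-/- (−1.32 ± 0.24, adjusted p = 2.59e-05) and missed the threshold in WT (−0.60 ± 0.27, adjusted p = 0.0588), and the difference between genotypes was not called (−0.72 ± 0.36, adjusted p = 0.947). Ptger4 was lower with LPS + Dex than with LPS (−0.85 ± 0.27, adjusted p = 0.015, and −0.65 ± 0.24, adjusted p = 0.0321). With the compared groups alone, the WT change with LPS was called (adjusted p = 0.013) and that with added Dex was not (adjusted p = 0.275). Both calls with added Dex also leaned on single libraries. The WT change was −0.37 (adjusted p = 0.151) without LPS + Dex replicate 3, which was at 1.39 FPKM, and −0.69 (adjusted p = 0.146) without LPS replicate 3. In AMPKa1-/- it was −0.57 to −0.64 (adjusted p = 0.074 to 0.109) without LPS + Dex replicate 1 or 3 or LPS replicate 2 or 3. The AMPKa1-/- call was also lost with no filter on the mean FPKM (adjusted p = 0.0698). Ptger4 overlaps Ttc33 on the opposite strand, a gene that rose with added Dex (0.54 ± 0.14 in WT, adjusted p = 0.00283). Prkaa1, the gene named in the AMPKa1-/- label, lies 24761 bases from Ptger4 on the opposite strand. The part of this position in Ptger4 differences between genotypes was not tested.

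Ptgir encodes the prostacyclin receptor. It rose with LPS, from 5.43, 5.57 and 6.54 FPKM to 10.3 and 8.60 FPKM in WT and from 8.20, 7.73 and 7.13 FPKM to 12.3, 12.8 and 11.6 FPKM in AMPKa1-/-, with no overlap (0.61 ± 0.15, adjusted p = 0.000888, and 0.61 ± 0.13, adjusted p = 0.000235). Dex alone lowered it to 2.66, 3.45 and 2.84 FPKM in WT and 2.64, 2.74 and 2.61 FPKM in AMPKa1-/- (−0.78 ± 0.13, adjusted p = 4.68e-05, and −1.24 ± 0.13, adjusted p = 3.52e-08). With LPS + Dex it was at 12.2, 10.1 and 10.7 FPKM in WT and 14.8, 13 and 14.2 FPKM in AMPKa1-/-. These libraries overlapped those with LPS alone in WT and lay above them in AMPKa1-/-, and the added Dex did not pass the test (0.20 ± 0.15, adjusted p = 0.324, and 0.18 ± 0.13, adjusted p = 0.311). Ptgir and Ptger2 thus moved in opposite directions with LPS and with Dex, and their group means of log2(FPKM + 1) correlated at −0.97 over the 12 groups.

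**Figure D2:**
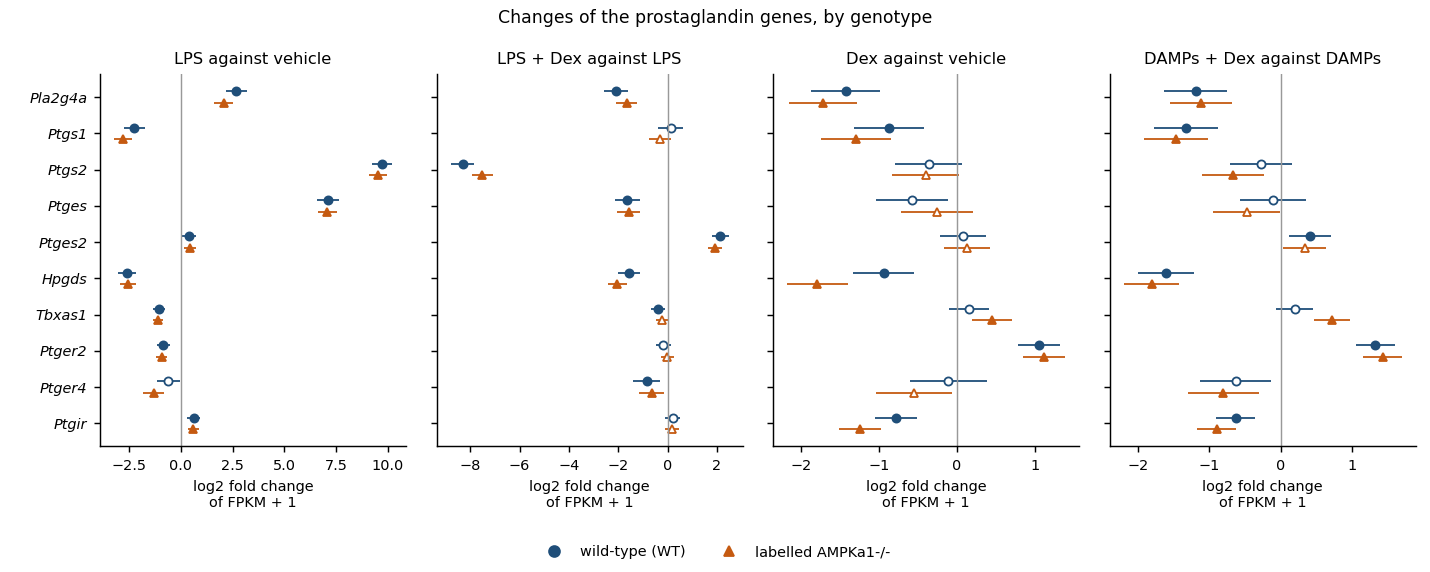
Differences in log2(FPKM + 1) with 95% confidence intervals for the 10 genes in 4 comparisons, in WT (circles) and in libraries labelled AMPKa1-/- (triangles). Filled symbols passed the limma test at an adjusted p of 0.05, and each panel has its own horizontal scale. Ptgs2 and Ptges lie far to the right with LPS, while Ptges2 is the single gene with filled symbols to the right of 0 when Dex was added to LPS.

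In the comparison of LPS + Dex with LPS, where Dex was given together with LPS for 24 h, 1 member was called higher and 6 lower in WT, beside 34.1% of all genes (16.6% higher and 17.5% lower). In AMPKa1-/- 1 was higher and 5 lower, beside 37.7% of all genes (19.3% higher and 18.4% lower). Lower in both genotypes were Pla2g4a, Ptgs2, Ptges, Hpgds and Ptger4, with Tbxas1 in addition in WT. The median change was −0.62 and −0.49 over the members and −0.03 and 0.01 over all genes. Part of the FPKM scale was taken up by 1 gene here, as Saa3, an acute phase serum amyloid, made up 16% to 24% of the FPKM sum in WT LPS + Dex libraries and 7.12% to 7.20% with LPS.

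Dex without LPS raised 1 member and lowered 4 in WT, with 30.9% of all genes called (15.9% higher and 14.9% lower), and raised 2 and lowered 4 in AMPKa1-/-, with 27.9% called (11.9% higher and 16% lower). Higher genes made up 42.8% of the calls in AMPKa1-/-, and 53% after quantile normalization. Pla2g4a (−1.43 ± 0.21, adjusted p = 8.01e-06, in WT), Ptgs1 (−0.87 ± 0.22, adjusted p = 0.00325), Hpgds (−0.94 ± 0.19, adjusted p = 0.0004) and Ptgir fell in both genotypes and Ptger2 rose in both. Ptgs1 was at 1.91, 1.90 and 1.82 FPKM in WT Dex libraries, below every vehicle library. Tbxas1 was higher with Dex in AMPKa1-/-, with 100.2, 109.8 and 99.7 FPKM against 67 to 82.2 FPKM (0.44 ± 0.12, adjusted p = 0.00838; 0.36 and 0.0596 without AMPKa1-/- vehicle replicate 1), and in WT the difference was 0.16 ± 0.12 (adjusted p = 0.343). Ptges was at 1.83, 1.29 and 2.26 FPKM in the WT Dex libraries, each below the lowest vehicle library, and missed the threshold (−0.58 ± 0.23, adjusted p = 0.0516). That value passed the test in 7 of 14 alternative analyses, among them the one with the replicate number as a block (adjusted p = 0.0369) and those without WT Dex replicate 3 (0.0394) or WT vehicle replicate 2 (0.0296). Ptgs2 was at 0 to 0.242 FPKM with Dex in WT, below every vehicle library, and was not called, whereas with 0.1 in place of 1 FPKM added before the logarithm it was called lower in both genotypes (adjusted p = 0.0248 in WT and 0.0232 in AMPKa1-/-).

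Set against vehicle, LPS + Dex left 5 members higher and 5 lower in WT, beside 54.2% of all genes (17.2% higher and 37% lower), and 4 higher and 5 lower in AMPKa1-/-, beside 57.4% (16.7% higher and 40.8% lower). The 4 higher in both genotypes were Ptgs2, Ptges, Ptges2 and Ptgir, and the 5 lower were Ptgs1, Hpgds, Tbxas1, Ptger2 and Ptger4. Pla2g4a was higher in WT (0.59 ± 0.21, adjusted p = 0.0208), a call that was lost without LPS + Dex replicate 1 (adjusted p = 0.122), vehicle replicate 1 (0.0599) or vehicle replicate 2 (0.0665), and in AMPKa1-/- the difference was 0.39 ± 0.21 (adjusted p = 0.119), which became 0.68 (0.00287) with centred libraries and 0.62 (0.00604) after quantile normalization. Centring of libraries moved the share of higher genes among all calls from 31.7% to 50.3% in WT and from 29% to 50.9% in AMPKa1-/-.

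Whether Dex acted alike with and without LPS was tested as a difference of differences, a comparison chosen after the data had been seen. Of the members 3 were called higher and 4 lower in WT, beside 32% of all genes (14.9% higher and 17.1% lower), and 3 higher and 4 lower in AMPKa1-/-, beside 28.4% (15.5% higher and 12.8% lower). Higher genes made up 46.5% of the WT calls, and 56.7% with centred libraries. For Ptgs2 the Dex effect with LPS minus that without was −7.95 ± 0.32 in WT (adjusted p = 2.88e-16), but without LPS it stood at 0.339 to 0.624 FPKM, with little room to fall on this scale, and its calls are not read as a difference in the Dex effect. For Ptges, at 1.29 to 3.71 FPKM with vehicle or Dex in WT, where this scale understates changes, the difference was −1.05 ± 0.34 (adjusted p = 0.0186). For Ptges2 it was 2.06 ± 0.21 (adjusted p = 3.22e-08). The Dex effects on both Ptger2 (−1.23 ± 0.20, adjusted p = 2.72e-05) and Ptgir (0.98 ± 0.20, adjusted p = 0.000384) were present without LPS and not called with it. Tbxas1 (−0.56 ± 0.19, adjusted p = 0.0241) was called as well. So was Ptgs1 (1.00 ± 0.33, adjusted p = 0.021), but with LPS it stood at 0.0624 and 0.167 FPKM in WT and at most at 1.15 FPKM in AMPKa1-/-, which left it little room to fall on this scale, and its calls are likewise not read as a difference. Counting both, the 7 genes were also those called in AMPKa1-/-, with the same signs. For Pla2g4a (−0.66, 95% interval −1.32 to −0.01, adjusted p = 0.112), Hpgds (−0.62, −1.21 to −0.04, adjusted p = 0.0956) and Ptger4 (−0.73, −1.47 to 0.01, adjusted p = 0.12) the difference did not pass the test in WT. Several of these calls leaned on single libraries or on the scale used. Without WT LPS replicate 2, the WT calls of Ptges (adjusted p = 0.113), Ptgs1 (0.0864) and Tbxas1 (0.154) were lost and 4 were made. The WT call of Ptges was lost in 6 of 19 alternative analyses, among them those without LPS + Dex replicate 2 (0.0753) or vehicle replicate 2 (0.0627). The call of Ptges was also lost with 0.1 in place of 1 FPKM added (0.104), with centred libraries (0.0662) and with the compared groups alone (0.0756). That of Ptgs1 was lost without vehicle replicate 2 (0.0504). That of Tbxas1 was lost without Dex replicate 3 (0.0512) or LPS + Dex replicate 3 (0.0802), and with centred libraries (0.1). In AMPKa1-/- the call of Ptgs1 (0.97, adjusted p = 0.0177) was lost in 6 of 19, among them those without Dex replicate 3, LPS + Dex replicate 1, LPS replicate 3 or vehicle replicate 2 (0.0526 to 0.0808) and that with 0.1 in place of 1 FPKM added (0.308). Conversely, single removals gained WT calls for Hpgds (0.0256 without LPS + Dex replicate 2 and 0.0414 without LPS replicate 3), Pla2g4a (0.0437 without LPS + Dex replicate 1) and Ptger4 (0.0195 without LPS + Dex replicate 2). Pla2g4a was also called in WT with the replicate number as a block (−0.78, adjusted p = 0.0381).

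**Figure D3:**
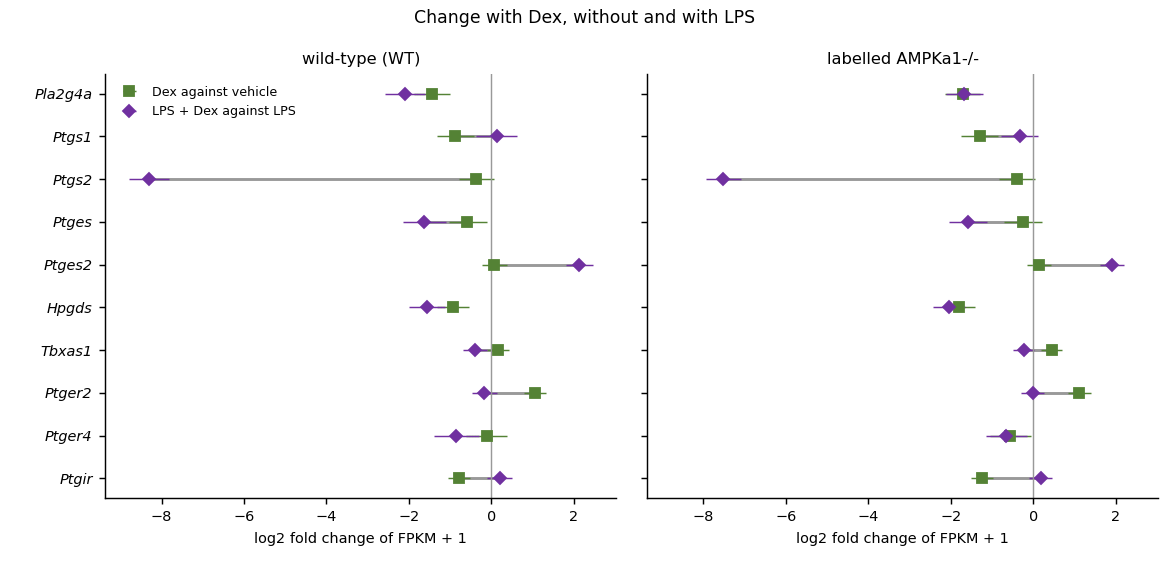
Change with Dex in log2(FPKM + 1) for each gene, without LPS (squares, Dex against vehicle) and with LPS (diamonds, LPS + Dex against LPS), in WT and in libraries labelled AMPKa1-/-. Thin coloured lines are 95% confidence intervals, and a thick grey line joins the pair where the difference passed the test. The pair of Ptgs2 lies farthest apart, where the change without LPS is limited by levels under 1 FPKM, and that of Ptges2 opens to the other side.

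DAMPs alone changed 0 of the 10 genes in either genotype by limma, beside 2.01% of all genes in WT (1.22% higher and 0.793% lower) and 4.13% in AMPKa1-/- (1.89% higher and 2.24% lower). At an unadjusted p under 0.05, 1 member was counted in each genotype, beside 1099 of 11354 genes in WT and 1509 in AMPKa1-/-. That member was Ptger4 in both. Ptger4 was at 21.1, 16.4 and 17.9 FPKM with DAMPs in WT and at 14.7, 19.5 and 24 FPKM in AMPKa1-/-, above all vehicle libraries of the same genotype (0.61 ± 0.24, adjusted p = 0.282, and 0.54 ± 0.24, adjusted p = 0.302). Ptgs2 remained at 0.416, 0.160 and 0.292 FPKM with DAMPs in WT and at 0.599, 0.660 and 0.854 FPKM in AMPKa1-/-. Set directly against DAMPs in a comparison chosen after the data had been seen, LPS differed for all 10 members in both genotypes, 5 higher and 5 lower, beside 54.4% of all genes in WT (20.7% higher and 33.7% lower) and 61.3% in AMPKa1-/- (22% higher and 39.3% lower). Higher genes made up 38% of the calls in WT and 35.9% in AMPKa1-/-, and 48.1% and 49.5% with centred libraries. The WT call of Ptges2 (0.43, adjusted p = 0.0252) was lost without WT DAMPs replicate 1 (0.0881) or 2 (0.106) or WT LPS replicate 2 (0.112) or 3 (0.0783), and with the compared groups alone the WT calls of Ptges2 (0.115) and Ptger2 (0.0618) were lost. The largest of these differences in WT was that of Ptgs2 (9.86 ± 0.24, adjusted p = 1.51e-22).

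With DAMPs present, Dex called 2 members higher and 4 lower in WT, beside 24.3% of all genes (11.7% higher and 12.6% lower), and 2 higher and 6 lower in AMPKa1-/-, beside 25.3% (13.1% higher and 12.2% lower). Ptger2 rose to 11.7, 10.8 and 11.5 FPKM in WT from 4.64, 4.39 and 2.97 FPKM (1.32 ± 0.13, adjusted p = 1.22e-08), and it rose in AMPKa1-/- as well (1.42 ± 0.13, adjusted p = 3.06e-09). Hpgds fell to 34.2, 31.1 and 36.3 FPKM from 114, 106 and 95.5 FPKM (−1.61 ± 0.19, adjusted p = 1.94e-07). Pla2g4a, Ptgs1 and Ptgir fell in both genotypes too, as they did with Dex alone, although the WT call of Ptgir was lost with the compared groups alone (adjusted p = 0.0779). Ptges2 was called higher in WT (0.40 ± 0.14, adjusted p = 0.0395), a call lost in 8 of 14 alternative analyses, among them those without DAMPs or DAMPs + Dex replicate 1 or 2 (adjusted p = 0.125 to 0.175). In AMPKa1-/-, Tbxas1 was higher (0.71 ± 0.12, adjusted p = 7.27e-05) while Ptgs2 (−0.68 ± 0.21, adjusted p = 0.0179) and Ptger4 (−0.81 ± 0.24, adjusted p = 0.0132) were lower. In WT, each DAMPs + Dex library was also below each DAMPs library for Ptger4 (−0.63 ± 0.24, adjusted p = 0.0548), which was called in 4 of 14 alternative analyses (0.015 to 0.0455, the latter without DAMPs + Dex replicate 3). The same held for the libraries of Ptgs2 (−0.28 ± 0.21, adjusted p = 0.384), called with 0.1 in place of 1 FPKM added (0.0443). Without AMPKa1-/- DAMPs replicate 3 both of the lower calls were lost (adjusted p = 0.0637 and 0.0786), and that of Ptgs2 also without AMPKa1-/- DAMPs + Dex replicate 1 (0.0579) and after quantile normalization (0.0761). Set against vehicle, DAMPs + Dex left 1 member higher and 4 lower in WT, beside 24.9% of all genes (11% higher and 13.9% lower), and 2 higher and 4 lower in AMPKa1-/-, beside 26.1% (11.2% higher and 14.9% lower). Ptger2 was the higher and Pla2g4a, Ptgs1, Hpgds and Ptgir were the lower genes in both, with Tbxas1 higher in addition in AMPKa1-/-. With 0.1 in place of 1 FPKM added, limma also called Ptgs2 lower (adjusted p = 0.00501 in WT and 0.0119 in AMPKa1-/-).

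Genotype was compared within each treatment. Ptgs1 was higher in the libraries labelled AMPKa1-/- under vehicle (1.17 ± 0.22, adjusted p = 0.00549), where the means were 11.1 ± 2.82 and 4.29 ± 0.599 FPKM (SD, n = 3 each). It was the 1 member of 10 called there, beside 0.432% of all genes (0.229% higher and 0.203% lower). It was also higher with DAMPs, at 9.74, 14.5 and 7.25 FPKM against 4.08, 5.18 and 3.21 FPKM (1.13 ± 0.22, adjusted p = 0.00883), beside 0.731% of all genes (0.449% higher and 0.282% lower). With DAMPs + Dex it was at 2.27, 4.19 and 2.85 FPKM against 1.21, 0.878 and 0.996 FPKM (0.99 ± 0.22, adjusted p = 0.018), beside 1.06% of all genes (0.555% higher and 0.502% lower). Each library labelled AMPKa1-/- was above each WT library under vehicle, Dex, LPS, DAMPs and DAMPs + Dex, and the groups overlapped with LPS + Dex (0.615, 0.252 and 0.287 FPKM against 0.212, 0.324 and 0.116 FPKM). These calls did not hold in every analysis, as those under vehicle, DAMPs and DAMPs + Dex were lost with 0.1 in place of 1 FPKM added (adjusted p = 0.22, 0.198 and 0.0731), with the compared groups fitted alone (0.0716, 0.265 and 0.0989), and without AMPKa1-/- replicate 2 of the same treatment (0.0846, 0.105 and 0.148) or WT replicate 3 of the same treatment (0.0609, 0.0666 and 0.0645). The call under DAMPs + Dex was lost without WT replicate 2 as well (0.109). Summed markers of platelets, cells rich in Ptgs1, were at 0.908 to 1.15 FPKM in the AMPKa1-/- and 1.35 to 1.72 FPKM in the WT vehicle libraries. The corresponding sums were 1.44 to 2.25 and 1.31 to 2.52 FPKM with Dex, 0.553 to 0.754 and 0.479 to 1.37 FPKM with DAMPs, and 1.37 to 2.35 and 0.913 to 3.18 FPKM with DAMPs + Dex. The genotypes overlapped in these 3 treatments. Sums of some other lists did not overlap between AMPKa1-/- and WT. With Dex they were 6.04 to 12.3 against 0.726 to 1.44 FPKM for neutrophils. For osteoclasts they were 3.79 to 5.49 against 10.6 to 13.5 FPKM. Neutrophil sums with DAMPs were 5.55 to 15.5 against 0.669 to 2.44 FPKM. Osteoclast sums with DAMPs + Dex were 3.46 to 4.61 against 13.1 to 13.5 FPKM. Under vehicle the sums of both lists overlapped. The part of platelets or of these other cells in the Ptgs1 levels, or in those of Hpgds below, was not tested.

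Under Dex, where 26.5% of all genes were called between genotypes (11% higher and 15.5% lower), 1 member was higher and 1 lower in AMPKa1-/-. Ptgs1 was at 4.12, 4.32 and 3.12 FPKM against 1.91, 1.90 and 1.82 FPKM (0.74 ± 0.22, adjusted p = 0.0189), and without WT Dex replicate 2 the difference was 0.75 with an adjusted p of 0.0844 (0.67 and 0.11 without AMPKa1-/- Dex replicate 2). Hpgds was lower, with all 3 AMPKa1-/- libraries at 18.4 to 32.8 FPKM against 44 to 55.7 FPKM in WT (−1.06 ± 0.19, adjusted p = 0.0012), and −0.98 with an adjusted p of 0.0158 without WT Dex replicate 2. Gm17147, which overlaps Hpgds, was also lower there (−2.19 ± 0.50, adjusted p = 0.00606), and without a strand, reads of their overlap cannot be told apart. With LPS, 0 members were called by limma, beside 0.766% of all genes (0.414% higher and 0.352% lower). At an unadjusted p under 0.05 there were 3 members, beside 1300 of the 11354 genes. With LPS + Dex likewise 0 were called, beside 0.669% of all genes (0.335% in each direction). Again 3 members had an unadjusted p under 0.05, beside 921 of the 11354 genes. Higher genes made up 41.4% of the calls between genotypes under Dex, 54% with LPS and 50% with LPS + Dex, and 59.1%, 69.9% and 60.8% with centred libraries. Without WT LPS + Dex replicate 3 Hpgds (−0.90, adjusted p = 0.00804) and Ptger4 (−0.88, adjusted p = 0.00877) were called. Ptgs2 with LPS + Dex was at 3.85 to 5.90 FPKM in AMPKa1-/- and at 1.69 to 3.54 FPKM in WT, without overlap, but the difference did not pass the test (0.61 ± 0.21, adjusted p = 0.278).

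**Figure D4:**
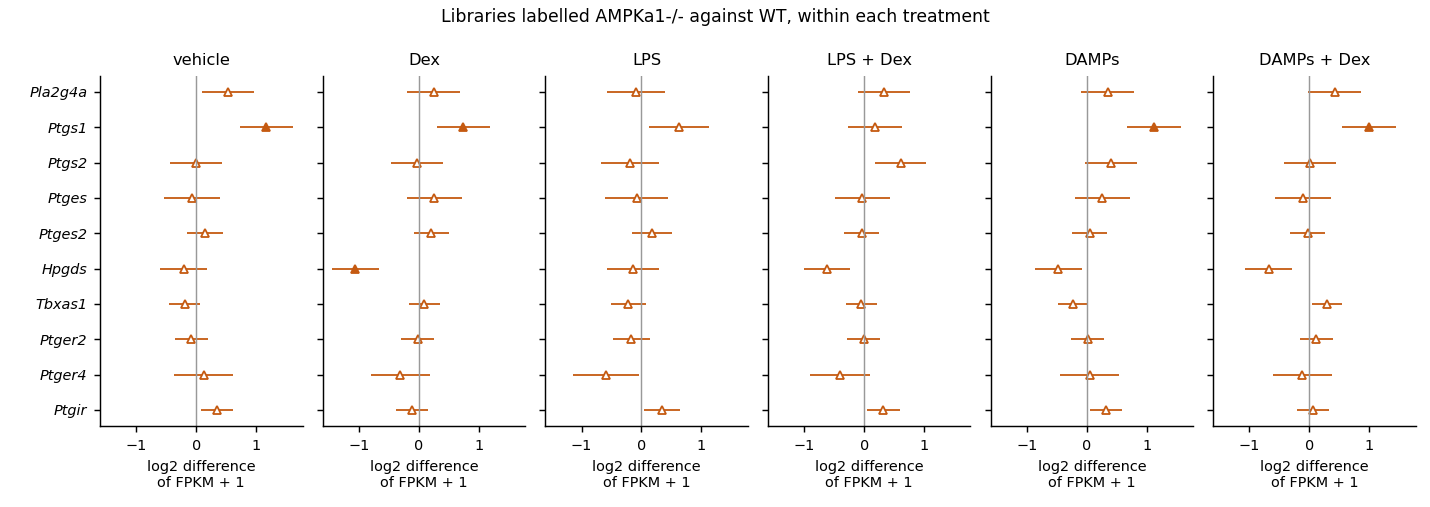
Differences between genotypes (libraries labelled AMPKa1-/- minus WT) in log2(FPKM + 1) with 95% confidence intervals for the 10 genes, with 1 panel per treatment. Filled symbols passed the limma test. Ptgs1 is filled under vehicle, Dex, DAMPs and DAMPs + Dex, and Hpgds under Dex.

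Whether genotype altered the responses themselves was tested with interaction terms. None of the 10 members and 0 of the 11354 genes were called by limma in any of the 5 interactions. At an unadjusted p under 0.05, 0 members were counted for LPS against vehicle (514 genes), 1 for LPS + Dex against LPS (311 genes), 2 for Dex against vehicle (2441 genes), 0 for DAMPs against vehicle (66 genes) and 1 for DAMPs + Dex against DAMPs (234 genes). Those were Ptgs2 with LPS + Dex against LPS (0.80, 95% interval 0.15 to 1.45), Hpgds (−0.85, −1.40 to −0.30) and Ptgir (−0.46, −0.85 to −0.08) with Dex against vehicle, and Tbxas1 with DAMPs + Dex against DAMPs (0.52, 0.16 to 0.89). The Ptges response to LPS differed by −0.01 between genotypes, with an interval of −0.71 to 0.68.

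Of 27 further genes of the pathway, 13 had a mean of at least 1 FPKM and were tested. With LPS, 2 were called higher and 8 lower in WT, beside 55.7% of all genes (19.9% higher and 35.8% lower), and 2 higher and 9 lower in AMPKa1-/-, beside 64.3% (20.2% higher and 44.1% lower). Their median log2 change was −0.61 and −0.45, beside −0.19 and −0.30 over all genes. The higher genes were Abcc4, an exporter of prostaglandins, at 15.6 and 11 FPKM with LPS against 3.88, 2.80 and 3.66 FPKM with vehicle in WT (1.67 ± 0.24, adjusted p = 9.6e-07), and Ptges3, the cytosolic prostaglandin E synthase that is also the chaperone partner p23 (0.57 ± 0.09, adjusted p = 9.76e-06).

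Of the 6 listed genes of transport and breakdown 5 were tested, and with LPS 1 was called higher (Abcc4) and 4 lower (Hpgd, Ptgr1, Ptgr2 and Zadh2) in both genotypes. Among the 11354 tested genes, the share lower with LPS was 35.8% in WT and 44.1% in AMPKa1-/-. The share higher with LPS was 19.9% in WT and 20.2% in AMPKa1-/-. Hpgd, the dehydrogenase that inactivates prostaglandin E2, was at 6.36, 7.55 and 4.98 FPKM with vehicle in WT and listed at 0 in both LPS libraries, and in AMPKa1-/- it was at 3.37, 2.89 and 3.76 FPKM and listed at 0 in all 3 LPS libraries (−2.85 ± 0.21, adjusted p = 2.89e-12, and −2.11 ± 0.19, adjusted p = 9.53e-11). It stayed at 0.0508 to 0.190 FPKM with LPS + Dex in WT. Dex alone raised it in WT, to 13, 11 and 7.42 FPKM (0.64 ± 0.19, adjusted p = 0.00961). Ptgr1, a reductase of the next step, fell from 52.7, 36.1 and 49.5 FPKM to 6.86 and 4.0 FPKM with LPS in WT (−2.89 ± 0.27, adjusted p = 3.43e-10), and Ptgr2 fell from 48, 48 and 48.4 FPKM to 21.8 and 20.2 FPKM (−1.16 ± 0.17, adjusted p = 1.32e-06). Unlike Hpgd, Ptgr2 was called higher when Dex was added to LPS, at 57.9, 55 and 31.7 FPKM in WT (1.12 ± 0.17, adjusted p = 5.83e-06) and in AMPKa1-/- (1.33 ± 0.15, adjusted p = 3.88e-08). Over the 13 genes, LPS + Dex against LPS called 3 higher and 1 lower in WT, beside 34.1% of all genes, and 2 higher and 3 lower in AMPKa1-/-, beside 37.7%. Their medians were 0.26 and 0.04, beside −0.03 and 0.01 over all genes. Dex against vehicle called 3 higher and 2 lower in WT, beside 30.9% of all genes, and 1 higher and 1 lower in AMPKa1-/-, beside 27.9%. Their medians were −0.11 and 0.15, beside 0.05 and −0.05 over all genes.

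**Figure D5:**
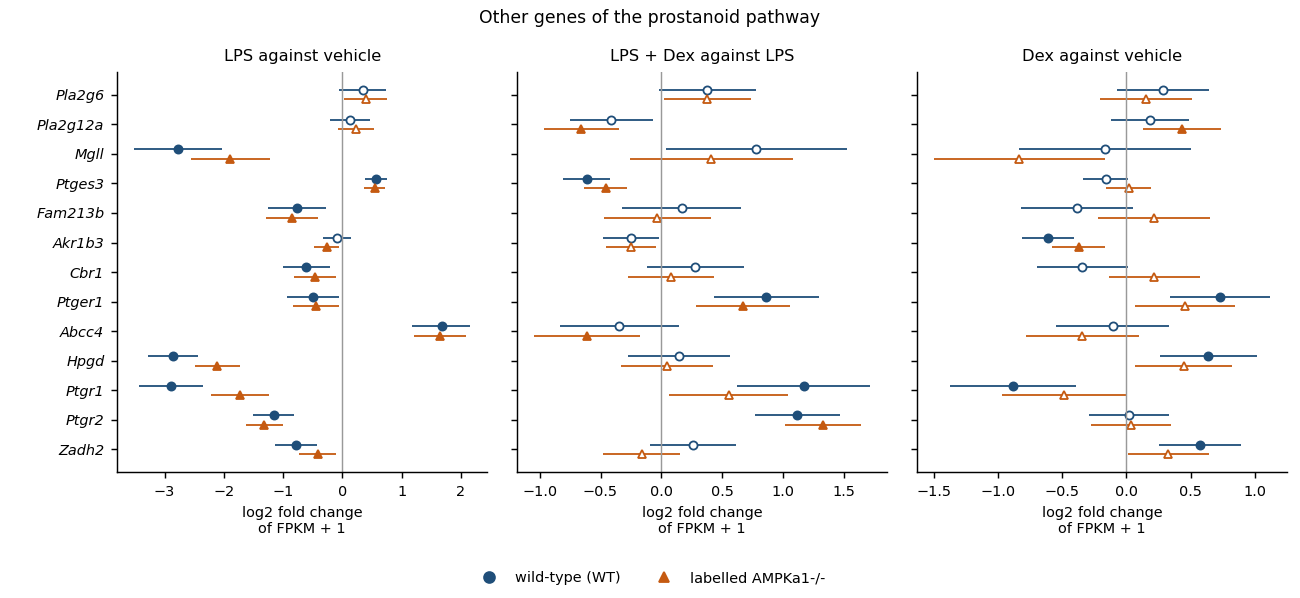
Differences in log2(FPKM + 1) with 95% confidence intervals for the 13 tested further pathway genes in 3 comparisons, in WT and in libraries labelled AMPKa1-/-. Filled symbols passed the limma test. With LPS, Hpgd, Ptgr1 and Mgll lie to the left and Abcc4 to the right.

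Mgll, the monoacylglycerol lipase that supplies arachidonic acid from endocannabinoids, fell with LPS as well (−2.77 ± 0.36, adjusted p = 2.39e-07, in WT). Ptgds, the second prostaglandin D synthase, was under the mean of 1 FPKM and not tested. It was at 2.66, 2.17 and 3.66 FPKM with Dex in WT and 1.41, 1.89 and 1.26 FPKM in AMPKa1-/-, above every vehicle library, of which the highest was at 0.121 FPKM, and with LPS it was listed at 0 in all 5 libraries. The higher Ptgds values with Dex thus stood beside lower Hpgds values, which were still at or above 18.4 FPKM.

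The genes whose group means followed each member most closely were listed as a description over the 12 groups. Closest to Ptgs2 were Il1a, Ccl22, Cxcl3, Il6 and Ccr7, all cytokine, chemokine or chemokine receptor genes, with Pearson correlations of 0.996 to 0.998. Closest to Pla2g4a was Tnf (0.989), and closest to Ptges were Adora2a, an adenosine receptor (0.998), and Socs3, a feedback inhibitor of cytokine signalling (0.997). Ptges2 ran closest to Ctla2a (0.991) and Cyc1, the cytochrome c1 of the respiratory chain (0.989). Closest to Hpgds was Clec7a, the receptor dectin-1 (0.985), to Tbxas1 Inpp5k (0.990), to Ptger2 Cables1 (0.993), to Ptger4 Stoml1 (0.972), to Ptgir Fhl3 (0.983) and to Ptgs1 Maged1 (0.977). Among the members themselves the closest pairs were Hpgds with Ptger4 (0.94), Tbxas1 with Ptger2 (0.91) and Pla2g4a with Ptgs2 (0.90).

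Ptgs2 (chr1:150100031-150108227, plus strand, GRCm38) has an antisense neighbour, Ptgs2os, that starts 67 bases away in the opposite direction. It was at 7.43 and 6.26 FPKM in the WT LPS libraries and at 5.17, 5.59 and 9.12 FPKM in the LPS libraries labelled AMPKa1-/-, and at most at 0.161 FPKM in every other library. Its mean of 0.978 FPKM kept it out of the test, and it was picked after its values had been seen. Ptgs2 and Ptgs2os were thus high in the same 5 libraries.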

How the data were processed

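Gene-level RNA-seq values of 35 BMDM libraries in 12 groups were used as the authors deposited them, in FPKM (fragments per kilobase of transcript, scaled to library size) for 47069 identifiers. The submitters' processing notes name TopHat2 2.0.12, Bowtie2 2.2.3, HTSeq 0.6.1 and DESeq2, with the builds GRCm38 and mm10. Whether counting used strand is not given in the sources used here. Library totals of 15837203 to 31955298 fragments were recovered from the lowest values. For genes under 10 fragments, 55.3% to 63.9% of values were whole to within 0.001, and 1 fragment in a 1 kb transcript was worth 0.0313 to 0.0631 FPKM, and less in longer transcripts. No pair of libraries shared more than 1000 identical values. No WT LPS replicate 1 was among the 35 libraries. Symbols and positions came from GENCODE M21 and promoters from RefSeq.

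The 11354 genes with a mean of at least 1 FPKM were fitted on log2(FPKM + 1) with limma 3.58.1 in R 4.3.3 (all groups in one fit, 23 residual degrees of freedom, eBayes with trend, two-sided). P-values were adjusted by the method of Benjamini and Hochberg over all genes, at a threshold of 0.05. Fold changes on this scale understate those of low genes. The labels do not say what the replicate numbers mark, so that p-values measure the spread between these samples. Samples of the same number deviated together in all 3 pairs (correlation over 0.1) for AMPKa1-/- in LPS against vehicle (0.124 to 0.316), LPS + Dex against LPS (0.356 to 0.375), Dex against vehicle (0.217 to 0.4) and LPS + Dex against vehicle (0.246 to 0.365), and between genotypes with LPS + Dex (0.119 to 0.515). Comparisons with the WT LPS group had only 2 pairs. Both were over 0.1 for LPS + Dex against LPS in WT (0.113 and 0.429) and between genotypes with LPS (0.134 and 0.112). For LPS against vehicle in WT they were −0.183 and −0.162.

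Genes named were the 10 members, 27 listed further pathway genes, genes that check the labels, cell type markers, genes within 25 kb of a member with a mean of at least 1 FPKM, and the 5 genes (Ptgs2) or 3 genes (other members) closest in group means. Ptgs2os and Saa3 were named after their values had been seen. Members, lists and comparisons were chosen with earlier results of these data known. The fit was tested on simulated data. Alternatives were log2(FPKM + 0.1), no filter, a mean of at least 5 FPKM, centred libraries, quantile normalization, no moderation, a replicate block, the compared groups alone, and each library left out. Python 3.11.15, numpy 2.4.6, pandas 2.3.3 and matplotlib 3.10.9 were used.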

Additional observations from a re-analysis of the deposited data

How the results depend on the processing

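Over 4361 values of the 10 genes under the alternatives, 4250 kept their side of the threshold, 76 lost and 35 gained a call, and 0 reversed. The cause of a changed call was not tested, and genes near 0, such as Ptgs2 without LPS and Ptgs1 with it, rest on few fragments. Of the 111 changed calls, 23 concerned the Dex effect with LPS against without and 21 the comparisons between genotypes. In the latter, with log2(FPKM + 0.1) the number of the 10 genes called was 0 in place of 1 under vehicle, 1 in place of 2 under Dex, 1 in place of 0 with LPS (Ptgs1, adjusted p = 0.0358), 0 in place of 1 with DAMPs and 0 in place of 1 with DAMPs + Dex. With a mean of at least 5 FPKM, which leaves Ptgs1 untested, it was 0 under vehicle, 1 under Dex, 0 with DAMPs and 0 with DAMPs + Dex. With the compared groups alone it was 0 under vehicle, 0 with DAMPs and 0 with DAMPs + Dex. With centred libraries or quantile normalization it was 2 with DAMPs + Dex, as Hpgds was added. Leaving out 1 library gave 0 to 1 under vehicle, 1 to 2 under Dex, 0 to 2 with LPS + Dex, 0 to 1 with DAMPs, 0 to 1 with DAMPs + Dex, and 4 to 8 for the Dex effect with LPS against without in WT, which was chosen after seeing the data.

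With the replicate number as a block, 6 in place of 5 genes were called for Dex against vehicle in WT (Ptges added, adjusted p = 0.0369) and 8 in place of 7 for the Dex effect with LPS against without in WT (Pla2g4a added, adjusted p = 0.0381), and no other count of the 10 changed. Over all genes the block gave 83 in place of 49 calls between genotypes under vehicle, and 5 in place of 0 for the genotype interaction with LPS.

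Over all genes, counts moved by more than 1.5 times as follows. Between genotypes they ranged over the alternatives from 19 to 92 under vehicle (49 as reported), 304 to 3341 under Dex (3008), 3 to 450 with LPS (87), 7 to 146 with LPS + Dex (76), 11 to 119 with DAMPs (83) and 35 to 155 with DAMPs + Dex (120). DAMPs against vehicle ranged from 1 to 372 in WT (228) and from 267 to 570 in AMPKa1-/- (469), and LPS + Dex against LPS in WT from 2065 to 4932 (3871). Without a filter the genotype interactions gave 118 calls for LPS, 75 for LPS + Dex against LPS, 21 for Dex, 2 for DAMPs and 9 for DAMPs + Dex against DAMPs, in place of 0.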
